A study of Mus musculus with 16 samples.

Results

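Interferon-stimulated genes are switched on when a cell senses interferon. Type I interferons bind the receptor pair Ifnar1 and Ifnar2, the kinases Jak1 and Tyk2 then pass the signal on, and Stat2 and Irf9 take part in a complex that binds the interferon-stimulated response element, a short DNA motif in the promoters of its targets. In brain tissue such genes are read as a sign of antiviral or inflammatory signalling, in glial cells above all. The 9 genes described here, of 54532 listed in the count table, were taken by gene symbol as genes of the type I interferon response, without use of their measured values. They are the transcription factor Irf7, the antiviral effectors Ifit1, Ifit3, Oasl2 and Bst2, the ubiquitin-like modifier Isg15 and its protease Usp18, and the interferon-induced genes Ifi27 and Rtp4. All 9 passed the filter on low counts in each comparison.

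RNA of the hippocampus was sequenced from 16 mice, 4 in each of 4 groups. hTau.P301S mice carry a human Tau transgene that bears the P301S mutation and is driven by Thy1, a promoter active mainly in neurons, and WT mice do not carry it. Mice of each genotype drank either vehicle water or 6 mM nicotinamide riboside (NR), a precursor of NAD+, and the groups given NR are written WT + NR and hTau.P301S + NR. According to the sample labels they drank it for 3 months, from 12 to 15 months of age, whereas the text of the study gives younger mice and, in one place, a shorter treatment. All mice had gone through maze and object memory tests before the tissue was taken. The comparisons ask whether the tau transgene, or NR in either genotype, goes along with a different level of these genes.

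Each mouse gave 16490261 to 21915362 counts. Neuronal and hippocampal markers were found in all 16 mice, but 4 mice stood apart. In hTau.P301S replicate 1, mitochondrial transcripts took 14.4% of counts, against 4.48 to 7.07% in the other 15 mice, and 19467 genes were detected, against at least 22199. In WT replicate 2, WT + NR replicate 3 and hTau.P301S + NR replicate 4, the summed level of 6 hippocampal markers was 448, 439.6 and 375 CPM (counts scaled to a common library size), against at least 691 CPM in the other mice. The summed level of 4 striatal markers was 714, 132 and 270 CPM in these 3 mice. Choroid plexus markers ranged from 17.7 to 9572 CPM across mice. Where a result rests on hTau.P301S replicate 1, values without it are given as well. In bulk tissue, fewer cells of a type and less RNA per cell cannot be told apart.

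The motif that answers to type I interferon is visible in the promoters of several of these genes. RefSeq entries for GRCm38.p6 were matched for 6 of the 9 genes (Ifit1, Ifit3, Isg15, Irf7, Oasl2 and Bst2, not Ifi27, Rtp4 and Usp18). The core of the interferon-stimulated response element, GAAA, any 2 bases, then GAAA, or on the other strand TTTC, any 2 bases, then TTTC, was searched, overlapping matches included, in the 250 bases before and 50 bases after each start. It was present in 4 of the 6 promoters, and in 3.44% of the 32851 promoters in the table. The stretch from 200 to 51 bases before the start is shown for these 4 genes, 5′ to 3′ on the strand of the gene, with the matches in capitals. Ifit1 lies on the plus strand (chr19:34640689-34640838), Ifit3 on the plus strand (chr19:34583329-34583478), Isg15 on the minus strand (chr4:156200869-156201018) and Bst2 on the minus strand (chr8:71537523-71537672).
Ifit1: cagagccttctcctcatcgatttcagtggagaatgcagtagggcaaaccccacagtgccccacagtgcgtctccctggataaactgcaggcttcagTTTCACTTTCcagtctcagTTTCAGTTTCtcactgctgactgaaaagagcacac
Ifit3: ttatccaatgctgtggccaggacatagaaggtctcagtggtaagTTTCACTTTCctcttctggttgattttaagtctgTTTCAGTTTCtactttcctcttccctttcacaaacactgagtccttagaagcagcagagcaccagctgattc
Isg15: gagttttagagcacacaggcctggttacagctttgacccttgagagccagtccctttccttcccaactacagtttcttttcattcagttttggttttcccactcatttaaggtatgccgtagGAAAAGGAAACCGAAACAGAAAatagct
Bst2: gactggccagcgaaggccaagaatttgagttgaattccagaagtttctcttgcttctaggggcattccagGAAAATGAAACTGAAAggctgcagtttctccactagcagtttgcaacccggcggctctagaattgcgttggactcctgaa

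Ifit1 and Ifit3, neighbours on chromosome 19, carried the same pair of 10-base matches, TTTCACTTTC and TTTCAGTTTC. They began 104 and 85 bases before the start in Ifit1, and 156 and 122 bases before it in Ifit3. Isg15 held 3 overlapping matches that began 78, 72 and 66 bases before its start. Bst2 held 2 overlapping matches that began 130 and 124 bases before its start. In Bst2 the motif of interferon gamma signalling, TTCNNNGAA, overlapped the first of these, and that motif was present in 1 of the 6 promoters and in 8.3% of all. The windows of Irf7 and Oasl2 held neither motif. A match is a string of letters in a window and was not measured as a bound site.

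The 9 genes differed widely in level, taken here per kb of a gene's summed exonic bases. Ifi27, which encodes a small hydrophobic membrane protein induced by type I interferon, was highest at 33.3 ± 24.6 CPM per kb (SD, n = 16 mice). Bst2, or tetherin, which holds budding virus particles at the cell surface, followed at 11.2 ± 9.10 CPM per kb, and Ifit3, a partner of Ifit1, at 7.51 ± 2.53 CPM per kb. Ifi27 exceeded Bst2 in 16 of 16 mice, whereas Bst2 exceeded Ifit3 in 10 of 16, so the order of these neighbours is not settled by the spread. Isg15, a ubiquitin-like protein that is attached to other proteins, came next at 2.53 ± 1.19 CPM per kb, below Ifit3 in 16 of 16 mice and above Ifit1 in 15 of 16. Ifit1, which binds foreign RNA ends, and Rtp4, a chaperone that carries receptors to the cell surface, had 1.34 ± 0.64 and 1.30 ± 0.69 CPM per kb, and each exceeded the other in 8 of 16 mice. The lowest were Oasl2, an antiviral protein of the oligoadenylate synthetase family, at 0.77 ± 0.24, Irf7, which drives interferon genes, at 0.74 ± 0.32, and Usp18, which removes Isg15 and dampens the receptor, at 0.55 ± 0.21 CPM per kb. Oasl2 exceeded Irf7 in 11 mice and Irf7 exceeded Usp18 in 12. Without hTau.P301S replicate 1, Ifi27 had 27.8 ± 11.3 and Bst2 9.22 ± 4.51 CPM per kb (SD, n = 15 mice). The places of the lower genes depend on the length taken. Per kb of the longest transcript, of 3123 bases against 6374 exonic bases, Oasl2 had 1.57 ± 0.49 CPM, beside 1.5 ± 0.79 for Rtp4 and 1.34 ± 0.64 for Ifit1. On that length Usp18, at 0.87 ± 0.33 CPM, and Irf7, at 0.86 ± 0.37 CPM, also changed order. The counts of the lesser genes were low, and the least were 11 for Oasl2 and 12 for Usp18 in single mice.

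Almost no interferon transcript was counted in the same mice. Of 9 interferon genes looked up, 6 (Ifnb1, Ifna1, Ifna2, Ifna4, Ifne and Ifnl3) had 0 counts in all 16 mice, and Ifng, Ifnk and Ifnl2 had at most 2 counts in a mouse. At this depth a count of 0 does not show that a gene is silent.

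Mice of the same group differed widely for all 9 genes. In the group where a gene varied most, its highest mouse exceeded its lowest by 3.85-fold (Rtp4) to 7.18-fold (Bst2). Without hTau.P301S replicate 1 these folds ran from 2.07 (Oasl2) to 5.38 (Bst2). The biological coefficient of variation was 36% (Ifit3) to 59.9% (Bst2), above the median of 31.4% over all genes for each of them. Counting error would give 3.44% for Ifi27 to 18.7% for Usp18.

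**Figure D1:**
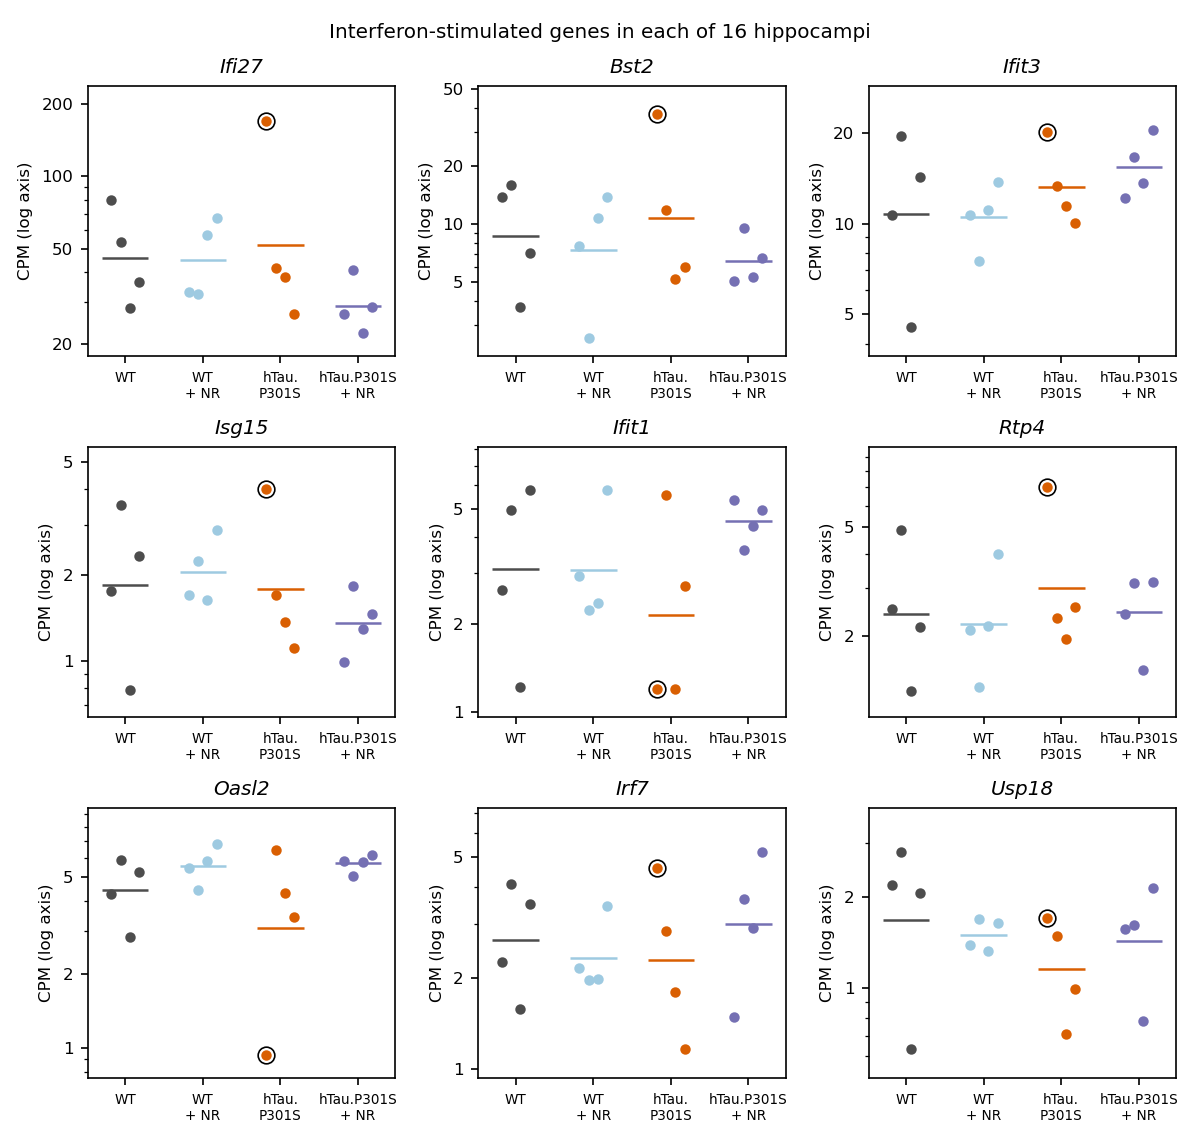
Level of each gene in each mouse, in CPM on a log axis, by group. Points are mice, horizontal lines are geometric means of 4 mice, and the ringed point is hTau.P301S replicate 1, which was the highest of 16 mice for Ifi27, Bst2, Isg15 and Rtp4 and the lowest for Ifit1 and Oasl2.

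Among the antiviral effectors, Ifit1 had 2.63, 4.93, 1.21 and 5.79 CPM in WT replicates 1 to 4, and 2.93, 2.24, 2.37 and 5.81 CPM in WT + NR. It had 1.2, 5.56, 1.2 and 2.72 CPM in hTau.P301S and 5.33, 3.6, 4.37 and 4.96 CPM in hTau.P301S + NR. The 4 hTau.P301S + NR mice lay close together, and hTau.P301S replicate 2 lay above all of them. Ifit3 had 10.7, 19.5, 4.54 and 14.3 CPM in WT, and 10.7, 7.49, 11.1 and 13.8 CPM in WT + NR. It had 20.2, 13.3, 11.4 and 10.0 CPM in hTau.P301S and 12.1, 16.6, 13.7 and 20.4 CPM in hTau.P301S + NR. Only hTau.P301S + NR replicates 2 and 4 exceeded every WT + NR mouse. Of the 50-base stretches of Ifit3, 51.2% also occur in its neighbour Ifit3b, so how the counting divided reads between them is uncertain.

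Oasl2 had 4.27, 5.88, 2.85 and 5.25 CPM in WT and 5.44, 4.43, 5.82 and 6.83 CPM in WT + NR. It had 0.94, 6.46, 4.30 and 3.44 CPM in hTau.P301S and 5.78, 5.06, 5.77 and 6.17 CPM in hTau.P301S + NR. The value of 0.94 CPM, from 11 counts in hTau.P301S replicate 1, was the lowest of all mice. Bst2 had 13.8, 16, 3.69 and 7.09 CPM in WT and 7.70, 2.57, 10.8 and 13.8 CPM in WT + NR. It had 37.2, 11.8, 5.18 and 5.98 CPM in hTau.P301S and 5.06, 9.55, 5.32 and 6.66 CPM in hTau.P301S + NR. After hTau.P301S replicate 1, the highest mouse was WT replicate 2, and the 4 groups overlapped.

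Isg15 had 1.75, 3.53, 0.79 and 2.33 CPM in WT and 1.69, 2.24, 1.63 and 2.88 CPM in WT + NR. It had 4.02, 1.69, 1.36 and 1.11 CPM in hTau.P301S and 0.99, 1.83, 1.29 and 1.46 CPM in hTau.P301S + NR. Of the hTau.P301S + NR mice, replicate 2 alone exceeded the 2 lowest WT + NR mice. Usp18 had 2.19, 2.80, 0.63 and 2.06 CPM in WT and 1.39, 1.69, 1.33 and 1.64 CPM in WT + NR. It had 1.71, 1.48, 0.71 and 0.997 CPM in hTau.P301S and 1.57, 1.62, 0.78 and 2.14 CPM in hTau.P301S + NR. Both the highest and the lowest mouse for Usp18 were WT.

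Irf7 had 2.25, 4.09, 1.58 and 3.52 CPM in WT and 2.16, 1.97, 1.97 and 3.44 CPM in WT + NR. It had 4.62, 2.86, 1.80 and 1.16 CPM in hTau.P301S and 1.48, 3.65, 2.91 and 5.20 CPM in hTau.P301S + NR. The highest mouse was hTau.P301S + NR replicate 4, the lowest was hTau.P301S replicate 4, and the 4 groups overlapped. Rtp4 had 2.52, 4.87, 1.27 and 2.16 CPM in WT and 2.11, 1.31, 2.17 and 4.01 CPM in WT + NR. It had 7.01, 2.33, 1.96 and 2.55 CPM in hTau.P301S and 2.42, 3.13, 1.51 and 3.16 CPM in hTau.P301S + NR. Without the value of 7.01 CPM, the hTau.P301S mice lay within the range of WT mice.

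Ifi27 had 79.9, 53.4, 28.3 and 36.4 CPM in WT and 33.0, 32.3, 56.8 and 67.4 CPM in WT + NR. It had 169.9, 41.6, 38.1 and 26.7 CPM in hTau.P301S and 26.8, 40.6, 22.2 and 28.7 CPM in hTau.P301S + NR. The value of 169.9 CPM was more than any other mouse of any group, and the remaining hTau.P301S mice lay below WT replicates 1 and 2.

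No gene of the 9 was called in hTau.P301S against WT mice, where calls were made by edgeR's quasi-likelihood test at an adjusted p below 0.05 with a log2 fold change beyond 0.5 in size. The background was 1 call in 16375 genes, or 0.00611%. The log2 fold changes ran from -0.65 for Usp18 (SE 0.51, edgeR adjusted p = 0.635) to 0.58 for Bst2 (SE 0.70, adjusted p = 0.756), with a median of -0.04 against 0.02 over all genes tested. Of the 9, 4 were higher, against 52.3% of all genes. No gene had an unadjusted p under 0.05, against 7.14% of all genes, and DESeq2 called none. The groups overlapped for each of the 9, whereas 6.3% of genes showed no overlap. The width of the intervals limits what can be said, since the 95% interval of Bst2 ran from -1.01 to 2.17. Without hTau.P301S replicate 1, 8 of the 9 were lower in hTau.P301S mice, with a median of -0.41, and none was called. The share of all genes lower whatever the p was not taken for that fit. Whether this count is particular to the 9 is therefore not known. At an unadjusted edgeR p under 0.05, 5.16% of all genes were higher and 6.63% lower in it.

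Several of these differences changed sign with that mouse. For Ifi27 the log2 fold change was 0.50 (SE 0.61) with it and -0.48 (SE 0.33) without it. For Bst2 it was 0.58 with and -0.41 without it, for Rtp4 0.35 and -0.25, and for Ifit3 0.17 and -0.09. Oasl2 turned from -0.27 to 0.04. With all 4 mice that stood apart left out, Ifi27 was at -0.46 and Bst2 at -0.11. Rtp4 was then at 0.19, Ifit3 at 0.22 and Oasl2 at 0.19. In that fit 6 of the 9 were lower, and the share of all genes lower was not taken. Usp18, Isg15, Irf7 and Ifit1 were lower both with and without hTau.P301S replicate 1. Without it they were at -0.85 (SE 0.52), -0.60 (SE 0.49), -0.57 (SE 0.44) and -0.21 (SE 0.62).

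In hTau.P301S + NR against hTau.P301S mice, no gene of the 9 was called by edgeR or DESeq2, against 1 of 16386 genes, or 0.0061%. The most extreme values were those of Ifi27, at a log2 fold change of -1.24 (SE 0.58, edgeR adjusted p = 0.367), and Bst2, at -1.19 (SE 0.62, adjusted p = 0.370). Without hTau.P301S replicate 1 they were -0.25 (SE 0.22) and -0.19 (SE 0.33). Ifit1 and Oasl2 were at 0.76 (SE 0.49) and 0.58 (SE 0.46), and at 0.54 (SE 0.43) and 0.28 (SE 0.24) without that mouse. With the 4 mice of each group, 5 genes were higher, against 47.6% of all genes, and 4 lower. The median was 0.19 against -0.03 over all genes. Without that mouse 7 were higher and 2 lower, with a median of 0.28. The share of all genes higher whatever the p was not taken for the fit without it. At an unadjusted edgeR p under 0.05, 10.6% of all genes were higher and 7.4% lower in that fit. No gene of the 9 had an unadjusted p under 0.05 in edgeR in either fit, against 12.9% of all genes with all mice. DESeq2 gave 1 with all mice, and 0 on all groups without hTau.P301S replicate 1. For none of the 9 were the groups without overlap, against 11.8% of genes.

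NR in WT mice gave the smallest differences. Log2 fold changes in WT + NR against WT ran from -0.34 for Usp18 (SE 0.42) to 0.31 for Oasl2 (SE 0.26), with 7 genes lower and 2 higher (51.1% of all genes were higher) and a median of -0.17 against 0.00 over all genes. No gene of the 9 was called by edgeR or DESeq2 or had an unadjusted p under 0.05. In this comparison edgeR called 0.0% of 16714 genes, 132 of them (0.79%) had an unadjusted p under 0.05 (0.371% higher and 0.419% lower), and groups without overlap were seen in 0.826% of genes and in none of the 9.

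Between the NR-treated groups, Ifit3 was at a log2 fold change of 0.55 in hTau.P301S + NR against WT + NR mice (SE 0.22, edgeR unadjusted p = 0.0365, adjusted p = 0.781). Ifi27 was at -0.68 (SE 0.28, edgeR unadjusted p = 0.0358, adjusted p = 0.781). These 2 of 9 genes had an unadjusted p under 0.05, against 6.09% of all genes (2.42% higher and 3.67% lower), and none of the 9 was called, against 9 of 16671, or 0.054%. DESeq2 on the same mice gave 2 genes under 0.05 unadjusted. On all 4 groups in 1 fit it gave 0, and on all groups without hTau.P301S replicate 1 it gave 1. DESeq2 called none of the 9. Groups did not separate for any of the 9, against 3.77% of genes. Of the 9, 6 were higher, against 47.0% of all genes. Isg15 was at -0.60 (SE 0.30) and Oasl2 at 0.02, with a 95% interval from -0.39 to 0.43. Of the 8 fits that leave out 1 mouse, 3 kept Ifit3 and 3 kept Ifi27 under 0.05 unadjusted. Left without hTau.P301S + NR replicate 4, a mouse of low hippocampal marker level, Ifit3 was at 0.39 (SE 0.22), and without WT + NR replicate 4 Ifi27 was at -0.46 (SE 0.26). With the 4 mice that stood apart left out, Ifit3 was at 0.41 (SE 0.25, edgeR unadjusted p = 0.131). Ifi27 was then at -0.56 (SE 0.33, edgeR unadjusted p = 0.122).

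**Figure D2:**
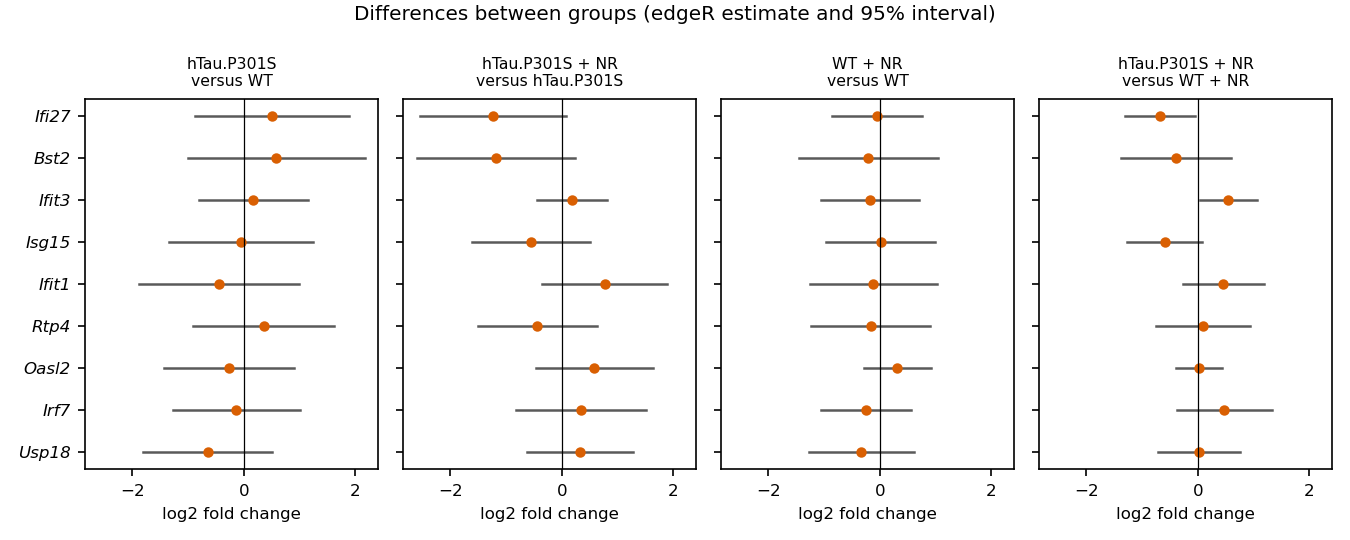
Log2 fold change of each gene in the 4 comparisons between groups, from edgeR, with 95% intervals as bars. The intervals include 0 except those of Ifit3, from 0.04 to 1.05, and Ifi27, from -1.30 to -0.06, in hTau.P301S + NR against WT + NR.

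The effect of NR was not shown to differ between genotypes for any of the 9. The interaction on the log2 scale ran from -1.16 for Ifi27 (SE 0.71, edgeR adjusted p = 0.572) to 0.89 for Ifit1 (SE 0.74, adjusted p = 0.657). Leaving out 1 mouse at a time, Ifi27 ran from -1.48 to -0.19 and Ifit1 from 0.58 to 1.54. With the 4 mice that stood apart left out, they were at -0.12 (SE 0.56) and 0.30 (SE 0.83). Interaction calls made up 0.0% of 17555 genes by edgeR, with 1390 of them, or 7.92%, under 0.05 unadjusted (3.29% higher and 4.63% lower, where 48.3% were higher whatever the p), and none of the 9 was among those by either tool. Taking both drinking water arms together, with 8 mice of each genotype, genotype differences ran from -0.33 for Isg15 (SE 0.32) to 0.36 for Ifit3 (SE 0.25). None of the 9 was called there or had an unadjusted p under 0.05, against 28 calls in 17555 genes, or 0.159%, and 9.06% of genes under 0.05 unadjusted (3.99% higher and 5.07% lower, where 51.5% were higher whatever the p). DESeq2 called none of the 9. With the 4 mice that stood apart left out, 203 genes were called by genotype and none of the 9 was.

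Exact permutation tests over mice, two-sided, gave p from 0.0857 to 1 for the 36 tests of 9 genes in 4 comparisons. The smallest p that groups of this size allow is 0.0286. These p-values and those of the fits judge a difference between groups against the spread between separate mice.

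The level of the 9 genes as a set varied more between mice of a group than between the group means. Each mouse was given the mean of the 9 standardized log2 CPM values, a z-score. The mean score was 0.04 ± 1.09 for WT mice and -0.01 ± 0.58 for WT + NR mice (SD, n = 4). For hTau.P301S mice it was -0.08 ± 0.76, and for those given NR 0.04 ± 0.44. The hTau.P301S mean rested on replicate 1, at 0.82, while replicates 2 to 4 were at 0.29, -0.71 and -0.71. In replicate 1 the standardized values of the 9 genes ran from -3.25 to 2.71. The 2 ends of the scale were both WT mice. WT replicate 3 scored -1.49, was among the lowest 3 of 16 mice for 8 of the 9 genes and was the lowest for Ifit3, Isg15, Rtp4 and Usp18. WT replicate 2 scored 1.09 and was above the mean for 9 of 9. WT + NR replicate 4, at 0.79, was also above the mean for 9 of 9. WT replicate 2 was 1 of the mice with a low hippocampal and a high striatal marker level, and the part of these in its score was not tested.

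**Figure D3:**
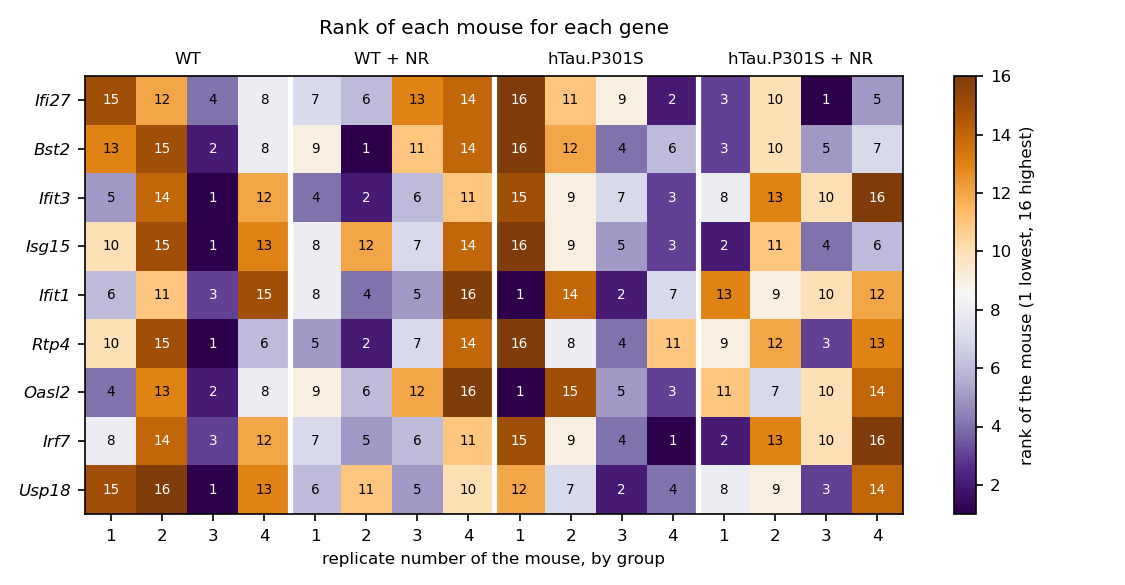
Rank of each of the 16 mice for each gene, from 1 for the lowest to 16 for the highest level, with mice as columns by group. Columns of 1 colour, as in WT replicates 2 and 3, are mice in which most of the genes were high or low together, and the column of hTau.P301S replicate 1 holds ranks of both 1 and 16.

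Across the 16 mice, Pearson's r between pairs of genes had a median of 0.55 and ranged from -0.54 to 0.87, and it was positive in 30 of 36 pairs. With permutation p-values adjusted over the 36 pairs, 18 passed 0.05 for r and 12 for Spearman's rho. The same count was not made for pairs of other genes in these mice. Whether these genes moved together more closely than other genes was therefore not tested. Taken on deviations from group means, 21 pairs passed. The closest pairs were Rtp4 with Bst2 (r = 0.87, rho = 0.75) and Ifi27 with Bst2 (r = 0.87, rho = 0.84). Without the 2 mice farthest from the median, r was 0.74 for both. Ifit3 and Irf7 had r = 0.78 and rho = 0.88, and Ifit1 and Oasl2 had r = 0.73 and rho = 0.78. The 6 negative pairs rested on hTau.P301S replicate 1: without it all 36 values of r were positive, from 0.07 (Ifit1 with Ifi27) to 0.79 (Rtp4 with Bst2), and Oasl2 with Ifi27 turned from -0.54 to 0.25.

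**Figure D4:**
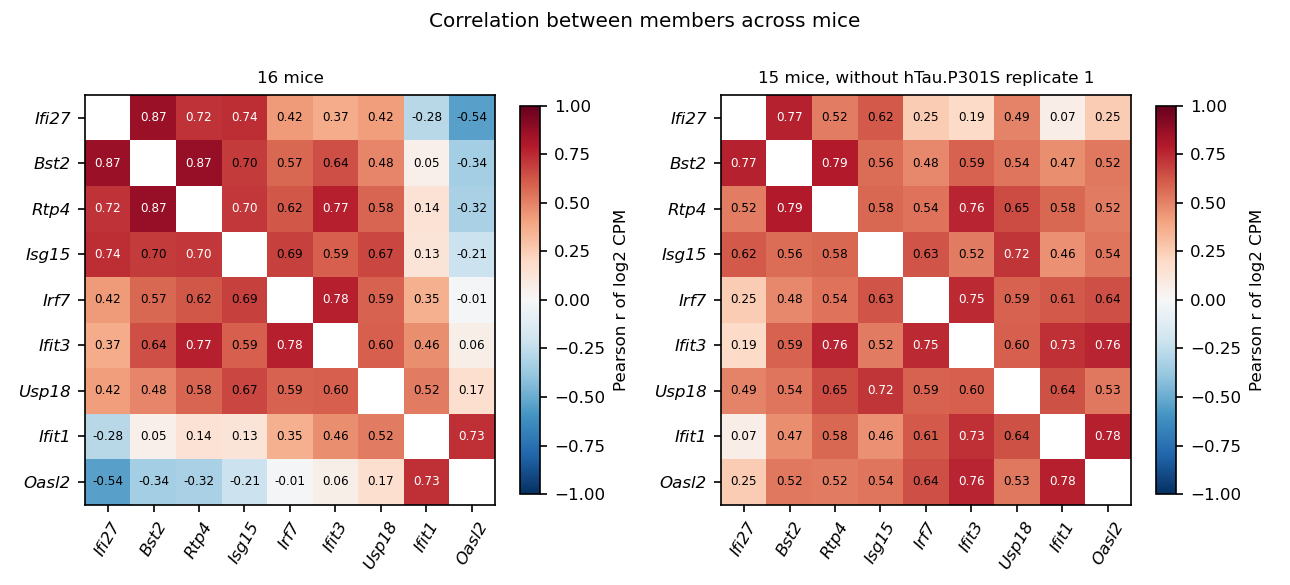
Pearson's r of log2 CPM between each pair of genes, across 16 mice on the left and across the 15 mice without hTau.P301S replicate 1 on the right. The negative values of Oasl2 and Ifit1 on the left, down to -0.54, are positive on the right.

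In hTau.P301S replicate 1 the genes parted. It was the highest of 16 mice for Isg15, Ifi27, Rtp4 and Bst2 and the lowest for Ifit1 and Oasl2. In that mouse short genes as a whole were high and long genes low. Against the mean of the other hTau.P301S mice, the median log2 difference was 1.25 in the shortest of 5 length classes of genes and -0.89 in the longest. Set against the median of its own class, Irf7 was 1.37 above, Rtp4 1.16 above, Bst2 1.11 above and Ifi27 1.03 above. Oasl2 stood apart from its class by -1.67 and Ifit1 by -1.50, and the remaining 3 genes were within 0.45 of theirs. The summed level of 10 microglial markers in this mouse was 3775 CPM, against 489 to 826 CPM in the other hTau.P301S mice and 393 to 555 CPM in WT mice. In hTau.P301S against WT mice 9 of the 10 were higher, with a median log2 fold change of 1.45. At an unadjusted p under 0.05, 6 were higher, against 3.41% of all genes. Without this mouse the median was 0.39, and 3 were higher at that limit, against 5.16%. The part of transcript length or of microglial RNA in the levels of the 9 genes was not tested.

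Ifi27 and Bst2 moved with the choroid plexus markers Ttr, Folr1, Kl and Kcnj13. The choroid plexus, which makes cerebrospinal fluid, lies against the hippocampus. Their summed level was 7755, 2406, 19.0 and 138 CPM in WT replicates 1 to 4, and 61.4, 51.4, 5770 and 9572 CPM in WT + NR. It was 17.7, 4634, 34.5 and 39.5 CPM in hTau.P301S, and 69.4, 3508, 52.2 and 423 CPM in hTau.P301S + NR. The 6 mice above 1000 CPM, 2 in WT, 2 in WT + NR and 1 in each hTau.P301S group, had 40.6 to 79.9 CPM of Ifi27 and 9.55 to 16 CPM of Bst2. The 9 mice below that limit, other than hTau.P301S replicate 1, had 22.2 to 38.1 CPM of Ifi27 and 2.57 to 7.70 CPM of Bst2. These ranges did not overlap, whereas those of the other 7 genes did. hTau.P301S replicate 1 had the least choroid plexus signal and the most Ifi27 and Bst2. The limit and the pair of genes were chosen after the values were seen, and no test was made.

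**Figure D5:**
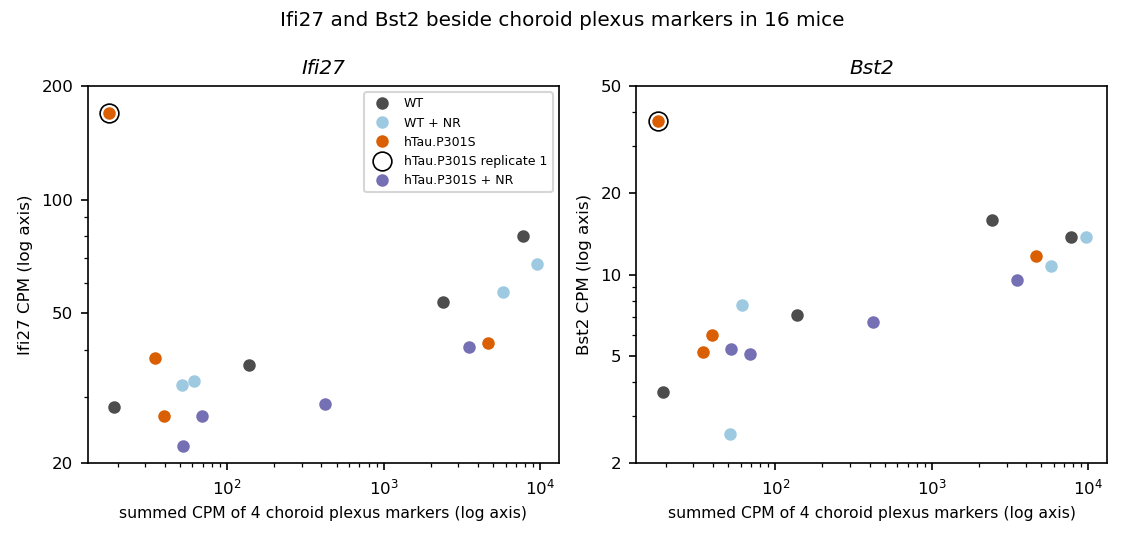
CPM of Ifi27 and Bst2 against the summed CPM of 4 choroid plexus markers in 16 mice, both axes logarithmic, with colours for groups. The 6 mice to the right, at 2406 CPM of the markers or more, lie above the other mice except the ringed hTau.P301S replicate 1.

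The choroid plexus marker level was also taken, on the log2 scale, as a covariate in edgeR, a fit added after Ifi27 and Bst2 had been seen to follow these markers, so that its SE and p for these genes are not independent of that choice. In it, the difference of Ifi27 between hTau.P301S + NR and WT + NR mice was -0.47 with an SE of 0.10, against an SE of 0.28 without the covariate (edgeR unadjusted p = 0.00103, adjusted p = 0.349). Ifit3 in the same comparison was at 0.65 (SE 0.18, adjusted p = 0.634). None of the 9 was called in any comparison with this covariate.

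The receptor and its transducers are the genes that pass the interferon signal on to the 9. Ifnar1 averaged 42.4 ± 4.33 CPM in WT mice and 42.0 ± 3.40 CPM in WT + NR mice (SD, n = 4). It averaged 41.6 ± 2.12 CPM in hTau.P301S mice and 41.9 ± 3.71 CPM in those given NR. Its log2 fold changes ran from -0.02 (SE 0.15) to 0.003 (SE 0.14) in the 4 comparisons between groups. Ifnar2 ran from -0.29 (SE 0.22) to 0.15 (SE 0.23), Jak1 from -0.05 (SE 0.21) to 0.23 (SE 0.23) and Tyk2 from -0.26 (SE 0.24) to 0.01 (SE 0.28). Stat2 ran from -0.03 (SE 0.22) to 0.22 (SE 0.19) and Irf9 from -0.12 (SE 0.17) to 0.06 (SE 0.17). None of the 17 receptor and transducer genes tested was called by edgeR in these 4 comparisons. At an unadjusted p under 0.05 there was 1 lower gene in hTau.P301S + NR against hTau.P301S mice, where 7.01% of all genes were lower, and 0 in the others of these 4.

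Some of these ranges rested on hTau.P301S replicate 1. Without it, in hTau.P301S against WT mice, Ifnar2 was at -0.04 (SE 0.16), Jak1 at 0.37 (SE 0.16, edgeR adjusted p = 0.417) and Irf9 at -0.19 (SE 0.20). Also without it, for NR within the hTau.P301S genotype, Ifnar2 was at -0.09 (SE 0.15), Jak1 at -0.18 (SE 0.12) and Irf9 at 0.13 (SE 0.19). Of the 17 genes, 1 was higher and 1 lower at an unadjusted p under 0.05 in each of these comparisons, against 5.16% and 6.63% of all genes in the first and 10.6% and 7.4% in the second. The transcription factor Irf3, named after its values were seen, was among them at -0.79 (SE 0.18, edgeR adjusted p = 0.255) in the first and 0.49 (SE 0.15, adjusted p = 0.157) in the second. Of 18 genes that sense, degrade or edit nucleic acid or signal from its sensors, 16 were tested and none was called. At most 1 was under 0.05 unadjusted in each of the 4 comparisons between groups, against 0.79% to 12.9% of all genes. By genotype over both arms, 1 was higher and 1 lower, against 3.99% and 5.07% of all genes, and the smallest edgeR adjusted p was 0.083.

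A wider list of 66 other interferon-stimulated genes was read in the same way. None of the 53 to 56 tested in a comparison was called by edgeR. In hTau.P301S against WT mice, 1 was higher and 2 were lower at an unadjusted p under 0.05, against 3.41% and 3.73% of all genes. Those were Ly6e at a log2 fold change of 0.86 (SE 0.27), Sp100, a nuclear body protein, at -1.55 (SE 0.41), and Uba7, which activates Isg15, at -0.85 (SE 0.31), each with an edgeR adjusted p of 0.598. Sp100 had 3.12, 3.36, 3.11 and 6.60 CPM in WT and 1.28, 2.07, 1.25 and 0.89 CPM in hTau.P301S mice, without overlap, as for 6.3% of all genes. The genes named from this list were picked by smallest p in these same values, so a lack of overlap adds no support. In WT + NR against WT none was under 0.05 unadjusted, and the smallest p were those of Ifit1bl2, Tap1 and Ly6e.

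In hTau.P301S + NR against hTau.P301S mice, 10 of 55 genes of this list were higher and 3 lower at an unadjusted p under 0.05, against 5.86% higher and 7.01% lower over all genes. The first 3 were Sp100 at 1.26 (SE 0.38), Rnf213, a large ubiquitin ligase, at 0.91 (SE 0.28), and Gbp3, a guanylate-binding protein, at 0.77 (SE 0.24), each with an edgeR adjusted p of 0.367. Gbp3 had 3.25, 4.56, 3.49 and 2.44 CPM in hTau.P301S and 5.56, 5.95, 5.99 and 6.07 CPM in hTau.P301S + NR mice. The 2 groups did not overlap for Gbp3, as for 11.8% of all genes, and NR-treated mice were higher. Without hTau.P301S replicate 1, 14 of 59 were higher and 2 lower, against the same 10.6% and 7.4% of all genes, and none was called. Markers of other tissue and cell types moved in this comparison too. Of 10 microglial markers 9 were lower and 1 higher, with a median of -1.16. Without that mouse 5 were lower and 5 higher, with a median of 0.02. All 4 striatal markers were higher at an unadjusted p under 0.05, with a median of 2.19 (2.15 without hTau.P301S replicate 1). Their summed level was 46.0, 70.2, 23.2 and 270 CPM in hTau.P301S + NR replicates 1 to 4. It was 17.1 to 23.9 CPM in hTau.P301S mice. Values of these markers without hTau.P301S + NR replicate 4 were not taken. Endothelial markers went both ways, with 3 of 6 higher and 3 lower and a median of 0.14. Of them, 1 was lower and 2 were higher under 0.05 unadjusted. The 2 higher ones were Kdr at 1.04 (SE 0.40) and Flt1 at 1.32 (SE 0.52), each with an edgeR adjusted p of 0.367. Without hTau.P301S replicate 1, 4 of the 6 were higher and 2 lower. Flt1 was then at 0.98 (SE 0.19, edgeR adjusted p = 0.066), Kdr at 0.77 (SE 0.23, adjusted p = 0.141) and Esam at -0.40 (SE 0.17, adjusted p = 0.258). The part of these striatal, endothelial and microglial markers in the counts of this list was not tested. Between the NR-treated groups 1 gene was higher and 2 were lower at an unadjusted p under 0.05, against 2.42% and 3.67%. They were Ifit3b at 0.67 (SE 0.21), the antigen peptide transporter Tap1 at -0.67 (SE 0.19) and its partner Tapbp at -0.50 (SE 0.19). Ifit3b, which shares sequence with Ifit3, had 6.01, 4.43, 7.85 and 6.04 CPM in WT + NR and 8.11, 9.24, 10.1 and 11.4 CPM in hTau.P301S + NR mice. These did not overlap, as for 3.77% of all genes.

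The genes outside the 9 whose levels followed their mean z-score most closely across the 16 mice were Anxa2 (r = 0.90), Ifitm3 (0.87), Igtp (0.86), S100a11 (0.85), Ifi27l2a (0.84), Id1 (0.84), Cnn2 (0.84), Mapkapk3 (0.83), Hist1h1c (0.83) and Aldh7a1 (0.83), of 17537 genes. Of these 10, Ifitm3, Igtp and Ifi27l2a are on the list of other interferon-stimulated genes. Over the 59 genes of that list the median r was 0.28, against -0.01 over all genes. It was -0.57 for the 4 neuronal and -0.43 for the 6 hippocampal markers. It was 0.53 for the 4 choroid plexus, 0.43 for the 4 striatal, 0.40 for the 4 oligodendrocyte, 0.35 for the 4 border macrophage, 0.32 for the 10 microglial, 0.11 for the 6 endothelial and 0.03 for the 5 astrocyte markers, and 0.43 for the 4 T cell markers kept. All these values share the same 16 libraries, and r without hTau.P301S replicate 1 was 0.91 for Anxa2 and 0.88 for Ifitm3.

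In GENCODE, on GRCm38 (mm10), all 9 are protein-coding genes. Ifit1 (ENSMUSG00000034459) spans chr19:34640871-34650009 and Ifit3 (ENSMUSG00000074896) chr19:34583531-34588731. Isg15 (ENSMUSG00000035692) spans chr4:156199424-156200818, Irf7 (ENSMUSG00000025498) chr7:141262706-141266481 and Oasl2 (ENSMUSG00000029561) chr5:114896936-114912234. Ifi27 (ENSMUSG00000064215) spans chr12:103434211-103440239, Rtp4 (ENSMUSG00000033355) chr16:23520291-23614222, Bst2 (ENSMUSG00000046718) chr8:71534255-71537456 and Usp18 (ENSMUSG00000030107) chr6:121245906-121270917. Values are sums over all exons of a gene, UTRs included. Rtp4 shares 13.9% of its exonic bases with Gm45338 on the same strand, Usp18 4.44% with Gm44148 on the opposite strand and Irf7 1.19% with Phrf1 on the opposite strand. Whether the counting used strand is not stated, so reads of these overlaps cannot be told apart.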

How the data were processed

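RNA of the hippocampus of 16 mice was sequenced from poly(A)-selected libraries. The authors trimmed reads with Trim Galore (FastQC for quality) and aligned them to mm10 with STAR. The text of the study names RSEM for the counts. The deposited counts per gene are whole and not normalized. Beside them stands a gene length, another value, which equals the summed exonic bases in GENCODE for 9 of 9 members. Groups came from the sample titles, and nothing was left out of the main fits.

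Pairs of groups were fitted with edgeR 4.0.16 in R 4.3.3 (default filter, TMM, quasi-likelihood test, Benjamini-Hochberg adjustment) on their 8 mice, and interaction and genotype on all 16. Calls needed an adjusted p under 0.05 and, except for the interaction, an absolute log2 fold change above 0.5. CPM used TMM library sizes over 16 mice, and log2 CPM a prior count of 2. Correlations used 100000 permutations. Scripts were tested on simulated data. Alternatives were DESeq2 1.42.0, its size factors, all groups in 1 fit, other filters, no mitochondrial genes, a replicate block and each mouse left out, and, chosen after seeing the data, 3 more: DESeq2 without hTau.P301S replicate 1, a choroid plexus covariate and 4 mice left out.

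The members were taken by gene symbol and not by their measured values. Earlier results of these data were nevertheless known when the members and lists were chosen. Genes named were the 9 members, Ifnar1, Ifnar2, Jak1, Tyk2, Stat2 and Irf9 (another gene of this rule is not reported here), the 3 other interferon-stimulated genes with the smallest p in each pair, and the 10 genes most like the members. Replicates are separate mice. Replicate numbers do not pair mice of different groups: deviations of same-numbered mice correlated at -0.54 to 0.42.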

Additional observations from a re-analysis of the deposited data

Results flagged for a closer look

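In 36 groups of 4 mice, 1 for each gene and group, a mouse was set apart when its gap to the nearest other mouse took more of the group's range than Dixon's 95% critical value, which chance exceeds in about 1 in 20 groups. Irf7 in WT + NR replicate 4 was one of 3 such values, at 3.44 CPM against 2.16 CPM in the next mouse. Ifi27 in hTau.P301S replicate 1 was at 169.9 CPM against 41.6 CPM, and Rtp4 in the same mouse at 7.01 CPM against 2.55 CPM. That mouse had the highest share of mitochondrial counts, and the part of this in its Ifi27 and Rtp4 levels was not tested.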

How the results depend on the processing

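No member was called in any of the 6 comparisons under any alternative, and the smallest adjusted p was 0.123 (Ifi27, hTau.P301S + NR against hTau.P301S, DESeq2 on all groups). Of 1152 alternative log2 values for 54 member results, 1061 kept their direction and 91 reversed, 63 of them on leaving out 1 mouse. The causes were not tested. Counting error was widest for Usp18, Isg15 and Rtp4.

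Genes called over the whole table moved more. In hTau.P301S against WT edgeR called 1, DESeq2 115, edgeR on all groups 36, DESeq2 on all groups 494 (474 without hTau.P301S replicate 1), no filter 5, 4 mice left out 23, and leaving out 1 mouse 1 to 14. In hTau.P301S + NR against hTau.P301S the counts were 1, then 283, 2, 287 and 151 in that order, 0 with at least 10 counts in every mouse or the choroid plexus covariate, 2 with 4 mice left out and 0 to 33 leaving out 1. In WT + NR against WT they were 0, and 2 by DESeq2 on all groups with or without hTau.P301S replicate 1, and 0 to 0 leaving out 1. In hTau.P301S + NR against WT + NR they were 9, then 58 by DESeq2, 21 and 53 on all groups, 15 without filter, 28 with 4 mice left out and 8 to 31 leaving out 1. The interaction had 0, DESeq2 18, the covariate 1 and leaving out 1 mouse 0 to 1. Genotype had 28, DESeq2 167, the stricter filter 13, 4 mice left out 203 and leaving out 1 mouse 19 to 78. Of the correlations, 18 passed, and 19 without hTau.P301S replicate 1.

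With the replicate number as a block, which does not pair mice, the calls were 3, 0 and 4 in hTau.P301S against WT, hTau.P301S + NR against hTau.P301S and hTau.P301S + NR against WT + NR. The block reversed Usp18 in the last (-0.048) and Bst2 by genotype (-0.034), and changed no member's call.

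DESeq2 on all groups without hTau.P301S replicate 1 reversed Ifit3 (-0.088), Oasl2 (0.048), Ifi27 (-0.49), Rtp4 (-0.25) and Bst2 (-0.41) in hTau.P301S against WT, and Isg15 (0.0064) and Rtp4 (0.17) in hTau.P301S + NR against hTau.P301S. No filter reversed Isg15 in WT + NR against WT (-0.0041), the stricter filter Ifit1 by genotype (-0.00071), and the covariate Isg15 in hTau.P301S against WT (0.054) and Ifi27 by genotype (0.13). Leaving out 4 mice reversed Oasl2 (0.19), Ifi27 (-0.46) and Bst2 (-0.11) in hTau.P301S against WT, and Rtp4 (0.054) in hTau.P301S + NR against hTau.P301S. In WT + NR against WT it reversed Ifit1 (0.19), Ifit3 (0.12), Irf7 (0.044) and Rtp4 (0.32), and in hTau.P301S + NR against WT + NR Oasl2 (-0.0066), Rtp4 (-0.065) and Usp18 (-0.24). It also reversed Oasl2 in the interaction (-0.21), and Irf7 (-0.12), Oasl2 (0.098) and Bst2 (-0.19) by genotype.

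Leaving out 1 mouse at a time reversed the following members. In hTau.P301S against WT the log2 ranges were Isg15 -0.60 to 0.30, Irf7 -0.57 to 0.089, Ifit3 -0.13 to 0.46, Oasl2 -0.67 to 0.045, Ifi27 -0.48 to 0.78, Rtp4 -0.25 to 0.78 and Bst2 -0.41 to 0.86. In hTau.P301S + NR against hTau.P301S the log2 ranges were Isg15 -0.74 to 0.0086 and Rtp4 -0.64 to 0.18. In WT + NR against WT the log2 ranges were Isg15 -0.27 to 0.37, Ifi27 -0.27 to 0.27, Ifit1 -0.52 to 0.20, Ifit3 -0.46 to 0.12, Rtp4 -0.52 to 0.27 and Bst2 -0.52 to 0.097. In hTau.P301S + NR against WT + NR the log2 ranges were Usp18 -0.19 to 0.24, Oasl2 -0.082 to 0.12 and Rtp4 -0.10 to 0.45. In the interaction the log2 ranges were Rtp4 -0.69 to 0.35, Isg15 -0.91 to 0.0025, Oasl2 -0.030 to 0.66 and Bst2 -1.26 to 0.023. By genotype the log2 ranges were Ifit1 -0.31 to 0.21, Ifi27 -0.58 to 0.062, Bst2 -0.40 to 0.25, Irf7 -0.044 to 0.29, Oasl2 -0.31 to 0.032 and Rtp4 -0.079 to 0.45.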
